A study of Mus musculus with 12 samples.

Results

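The genes for DNA methyltransferases were followed in 4 mouse embryonic stem (ES) cell lines that differ in Rex1 (Zfp42), a zinc finger protein of the Yy1 family that marks undifferentiated ES cells. The members were taken by name. They are all the gene probes whose gene name in the array files begins with Dnmt, which gave 5 genes of 7181 named genes and 10 probes of 20280 gene probes: 2 probes each for Dnmt3b and Dnmt1, 4 for Dnmt3a, and 1 each for Dnmt3l and Dnmt2. EB5 was the wild-type line, RKPG9 the line labelled Rex-1+/-, and HP3 and HP4 the lines labelled Rex-1-/- (Rex1+/- and Rex1-/- below). Each line is 1 clone. All descend from E14tg2a ES cells, which were grown without feeder cells on gelatin with LIF, and in the targeted allele the start of the Rex1 open reading frame was replaced by a pacEGFP cassette, which carries puromycin resistance and a green fluorescent protein. The homozygous lines of the study came from Rex1+/- cells, either from RKPG9 under a high dose of puromycin or by a further targeting vector. The route of HP3 and of HP4 is not given in the sources used here, so whether RKPG9 is their parent is not known. RNA of each line was labelled with Cy3 and hybridized on 3 arrays against the same Cy5-labelled universal mouse reference RNA, a pool from cultured cell lines, so every level below is the log2 ratio of a line over that reference. Nothing in the labels ties the 3 arrays of a line to separate cultures, and p-values therefore measure only the spread between these arrays.

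DNA methyltransferases place methyl groups on cytosine, in mammals mostly at CpG dinucleotides. Dnmt3a and Dnmt3b set new methylation patterns and Dnmt3l, which has no catalytic activity of its own, binds them and stimulates their work. Dnmt1 copies the pattern onto the daughter strand after replication. Dnmt2, now named Trdmt1, shares the catalytic fold but methylates transfer RNA. Undifferentiated ES cells are known for high levels of the de novo enzymes and of Dnmt3l, and they survive without methylation.

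Between 85.3% and 94.5% of the gene probes were well above background in Cy3, from 92.2% to 94.5% on the EB5 arrays and from 85.3% to 86.1% on the HP4 arrays. The files of EB5 were read out in a session of the scanner software of their own and those of RKPG9, HP3 and HP4 in another, so a difference from EB5 cannot be told apart from that session, whereas the 3 other lines share 1 session. Of 10 ES cell markers, 8 were measured and all 8 were well above background on every array of all 4 lines, with a Cy3 signal summed over them of 170000 to 178800 for EB5, 234600 to 237200 for RKPG9, 156500 to 181300 for HP3 and 103000 to 114200 for HP4. Trophoblast markers (4 of 5 measured, Eomes not well above background in any line) summed to 10110 to 10520 in EB5 and to between 3045 and 4431 in the other lines. Of 4 primitive endoderm markers measured, Gata4 missed that mark in RKPG9, HP3 and HP4, and the 3 mesenchyme markers measured of 6 were above it in every line. Zfp42 itself was measured by a pair of probes. A_65_P04537 read 5.98, 5.98 and 5.99 for the 3 EB5 arrays, 6.05, 6.01 and 6.03 for those of RKPG9, 6.11, 5.94 and 5.91 for those of HP3 and 5.66, 5.43 and 5.24 for those of HP4. A_65_P04151 had means of 5.91, 5.97, 5.86 and 5.38 in the same order. On both probes all HP4 arrays lay below every array of the other lines, and since the sources used here do not place either probe inside or outside the replaced stretch, these values do not check the genotypes.

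Every Dnmt gene had at least 1 promoter window in the RefSeq table used here (assembly GRCm38.p6), 11 windows in all. The array files name no genome build, so the windows are given as context and no probe was placed on them. The 250 bases before the start are read 5′ to 3′ on the gene's strand. They are shown for Dnmt3b and Dnmt3a, whose probes were all called lower in RKPG9 than in EB5. They are also shown for Dnmt3l, whose level did not follow theirs. Capitals mark CpG, the dinucleotide these enzymes methylate.
Dnmt3b, chr2:153649199-153649448, + strand: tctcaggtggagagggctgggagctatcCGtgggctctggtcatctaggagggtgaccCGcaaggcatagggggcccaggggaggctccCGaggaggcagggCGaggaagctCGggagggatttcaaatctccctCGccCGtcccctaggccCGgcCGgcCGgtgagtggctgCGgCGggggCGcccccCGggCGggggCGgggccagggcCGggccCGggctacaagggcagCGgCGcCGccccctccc
Dnmt3a, chr12:3806730-3806979, + strand: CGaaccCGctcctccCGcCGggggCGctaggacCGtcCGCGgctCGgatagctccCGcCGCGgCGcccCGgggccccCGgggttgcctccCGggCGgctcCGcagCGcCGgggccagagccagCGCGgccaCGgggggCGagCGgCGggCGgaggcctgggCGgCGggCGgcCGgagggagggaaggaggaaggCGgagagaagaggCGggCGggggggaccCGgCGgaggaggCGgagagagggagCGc
Dnmt3a, chr12:3891494-3891743, + strand: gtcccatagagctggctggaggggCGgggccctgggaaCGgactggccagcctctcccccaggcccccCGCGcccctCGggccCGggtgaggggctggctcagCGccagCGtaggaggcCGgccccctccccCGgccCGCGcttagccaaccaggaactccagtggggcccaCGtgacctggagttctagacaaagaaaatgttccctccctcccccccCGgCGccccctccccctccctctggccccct
Dnmt3l, chr10:78042037-78042286, + strand: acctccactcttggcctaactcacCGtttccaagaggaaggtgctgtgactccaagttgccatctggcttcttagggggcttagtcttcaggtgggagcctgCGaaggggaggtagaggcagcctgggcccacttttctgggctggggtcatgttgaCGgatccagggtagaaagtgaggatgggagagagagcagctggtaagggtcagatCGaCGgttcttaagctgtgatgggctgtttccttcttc
The Dnmt3b window held 21 CpG, more than 83.7% of the 32851 windows of all genes, whose median was 6. The 3 Dnmt3a windows held 38, 40 and 15 CpG, of which the first and the last are shown because the second starts close to the first. The 3 Dnmt3l windows held 5, 4 and 3, of which the first is shown. The 3 windows of Dnmt1, whose level did not follow that of Dnmt3b either, held 26, 7 and 2, and the Dnmt2 window held 9. The core of the Yy1 motif, CCATNTT, searched on both strands, was found in none of the 11 windows and in 12.4% of all windows, which says only that these letters are not there. The GC box GGGCGG, searched in the same way, was in 6 of the 11 windows and in 32.7% of all, with 3 copies in the Dnmt3b window, and CCAAT was in 2 of the 11 and in 33.8% of all.

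Dnmt3b, which methylates repeats and CpG islands in the early embryo, gave one of the highest ratios over the reference on these arrays and was lowest in the Rex1+/- line. Probe A_65_P11542 read 4.58, 4.50 and 4.75 for the 3 EB5 arrays, 3.75, 3.91 and 3.98 for those of RKPG9, 5.07, 4.98 and 4.87 for those of HP3 and 5.17, 5.01 and 4.79 for those of HP4 (log2 ratio over the reference). All 3 RKPG9 arrays lay below every array of the other lines, and the HP3 and HP4 arrays overlapped each other and lay above those of EB5. The mean of EB5 was 4.61 ± 0.13, that of RKPG9 3.88 ± 0.12, that of HP3 4.97 ± 0.10 and that of HP4 4.99 ± 0.19 (SD, n = 3 arrays), or 24.4, 14.7, 31.4 and 31.7 times the reference. Among all probes with a level, its mean ratio stood 15th of 20241 for EB5, 28th of 20279 for RKPG9, 12th of 20274 for HP3 and 8th of 20279 for HP4.

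The other Dnmt3b probe, A_65_P16398, gave the same order. It read 3.69, 3.61 and 3.80 for the 3 EB5 arrays, 3.11, 3.09 and 2.90 for those of RKPG9, 4.12, 4.21 and 4.15 for those of HP3 and 4.20, 4.25 and 4.04 for those of HP4. Again the 3 RKPG9 arrays were below all others and the arrays of HP3 and HP4 above those of EB5. In bulk RNA, fewer cells with the transcript and less transcript per cell cannot be told apart.

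Within the session shared by RKPG9, HP3 and HP4, Dnmt3b was more than 2-fold higher in both Rex1-/- lines than in the Rex1+/- line. A_65_P11542 was 2.14-fold higher in HP3 (log2 change 1.10 ± 0.10 SE, adjusted p = 7.66e-06) and 2.16-fold higher in HP4 (1.11 ± 0.10, adjusted p = 4.79e-06). A_65_P16398 was 2.17-fold higher in HP3 (1.12 ± 0.07, adjusted p = 4.96e-07) and 2.18-fold higher in HP4 (1.13 ± 0.07, adjusted p = 3.42e-07). Only 0.148% of the probes tested rose by over 2-fold past the test in HP3 against RKPG9, and 0.138% in HP4. The 2 probes stood 20th and 19th from the top of 20273 probes in HP3 and 20th and 17th of 20278 in HP4. Both comparisons use the same 3 RKPG9 arrays, so they do not bear on each other independently. Between HP4 and HP3 the difference was 0.01 for A_65_P11542 (95% confidence interval -0.20 to 0.23, adjusted p = 0.931) and 0.01 for A_65_P16398 (-0.15 to 0.16, adjusted p = 0.966), with intervals that leave room for a difference of up to 0.23. The size in HP4 depended on the scaling: with each array only centred on its median the changes against RKPG9 were 0.54 and 0.63, and from Cy3 signals alone 2.13 and 1.88, each past the test. The HP4 to HP3 difference followed it, at -0.48 and -0.41 with median centring and 0.66 and 0.46 in Cy3 alone.

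Against the wild-type line, Dnmt3b fell in RKPG9 and rose in HP3 and HP4. The fall in RKPG9 was 0.73 ± 0.10 on the log2 scale for A_65_P11542 (change -0.73, adjusted p = 0.000126) and 0.66 ± 0.07 for A_65_P16398 (change -0.66, adjusted p = 2.26e-05). The rise in HP3 was 0.36 ± 0.10 (adjusted p = 0.0163) and 0.46 ± 0.07 (adjusted p = 0.000512). In HP4 it was 0.38 ± 0.10 (adjusted p = 0.0091) and 0.47 ± 0.07 (adjusted p = 0.000324), but with median centring the direction turned to -0.25 (adjusted p = 0.0302) and -0.07 (adjusted p = 0.478). For A_65_P11542 in HP3, the call was lost without EB5 replicate 2 (0.30, adjusted p = 0.0622), without HP3 replicate 1 (0.31, adjusted p = 0.0615) and with median centring (0.23, adjusted p = 0.0729). Markers of other cells moved in the same comparisons. Of the 3 mesenchyme markers, 2 fell and none rose in RKPG9 against EB5, and 2 rose and none fell in HP3 and in HP4 against RKPG9. Their summed Cy3 signal was 33430 to 37550 for EB5, 28950 to 31780 for RKPG9, 29740 to 36080 for HP3 and 22330 to 24800 for HP4. Of the 4 trophoblast markers, 3 fell and none rose against EB5 in each of RKPG9, HP3 and HP4. Against RKPG9 none of them passed the test in HP3, and 2 rose and none fell in HP4. Of the 4 primitive endoderm markers, 1 fell and none rose in RKPG9 against EB5. Against RKPG9 none of these passed it in HP3, and 2 rose and 1 fell in HP4. Of the 8 ES cell markers, 3 rose and none fell in RKPG9 against EB5. Against RKPG9, 1 rose and 1 fell in HP3, and 1 rose and 5 fell in HP4, among them Zfp42 itself (change -0.58). Of all probes, 12.5% rose and 21.9% fell in RKPG9 against EB5. Against RKPG9, 12.7% rose and 10.1% fell in HP3, and 21% rose and 19.1% fell in HP4. The part of the markers in the Dnmt3b and Dnmt3a changes was not tested.

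**Figure D1:**
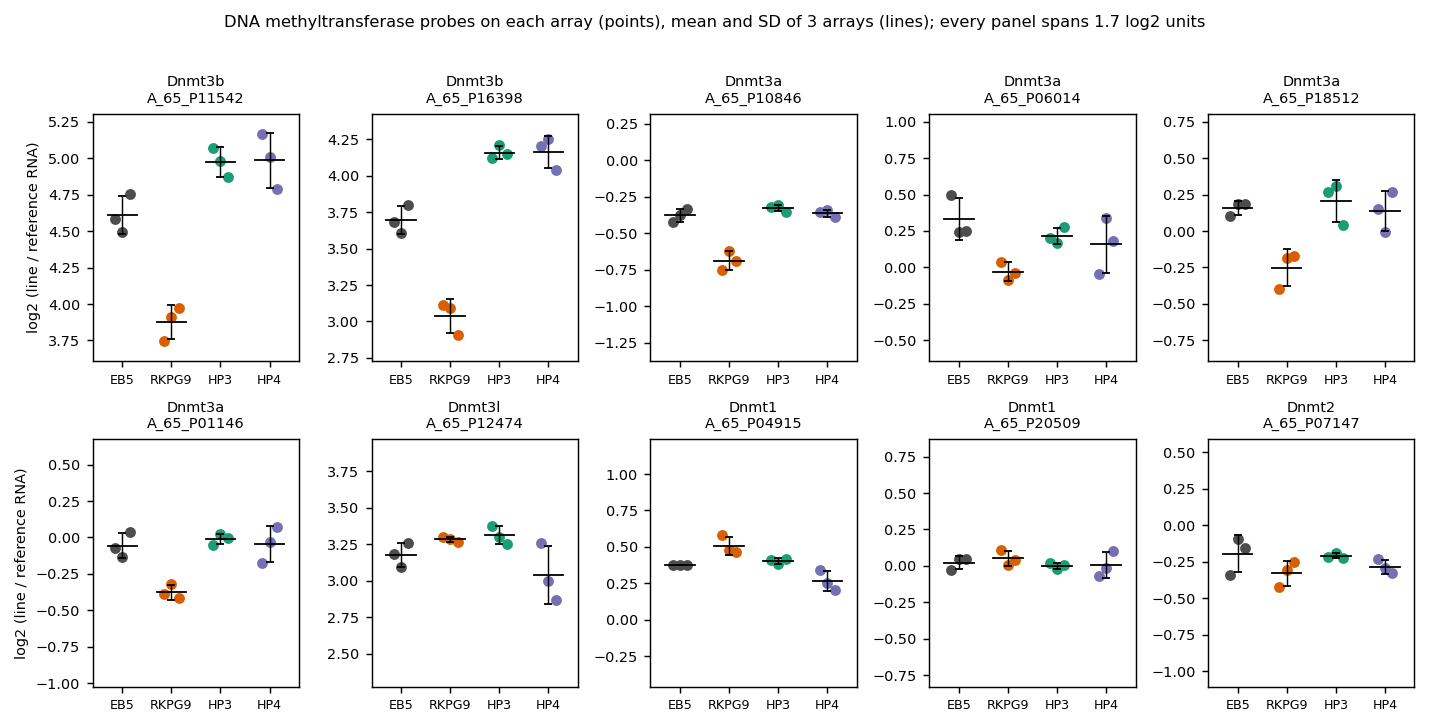
Each panel is 1 probe, with the log2 ratio of a line over the reference RNA on the y axis and the 4 lines on the x axis; points are arrays, horizontal lines the mean and bars the SD of 3 arrays, and every panel spans the same range. In the panels of Dnmt3b and Dnmt3a the 3 RKPG9 arrays sit lowest, except that 1 HP4 array of A_65_P06014 reaches down among them.

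Dnmt3a, the second de novo enzyme, was also lowest in the Rex1+/- line, by a smaller amount. A_65_P10846 read -0.42, -0.38 and -0.34 for the 3 EB5 arrays, -0.75, -0.62 and -0.69 for those of RKPG9, -0.32, -0.31 and -0.35 for those of HP3 and -0.36, -0.34 and -0.39 for those of HP4. The 3 RKPG9 arrays were separate from the rest and the other lines lay close together. The array files describe this probe as similar to Dnmt3a and put it in a gene cluster other than that of the other probes, so its gene is uncertain.

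Probe A_65_P18512 read 0.10, 0.19 and 0.18 for the 3 EB5 arrays, -0.40, -0.19 and -0.17 for those of RKPG9, 0.27, 0.31 and 0.04 for those of HP3 and 0.15, -0.004 and 0.27 for those of HP4. Probe A_65_P01146 read -0.07, -0.14 and 0.03 for the 3 EB5 arrays, -0.39, -0.32 and -0.42 for those of RKPG9, -0.05, 0.02 and -0.01 for those of HP3 and -0.17, -0.03 and 0.07 for those of HP4. On both, RKPG9 was again lowest on all 3 arrays. A_65_P01146 was dim, with a processed Cy3 signal between 71.1 and 294, and it was not well above background on 2 of the 3 RKPG9 arrays. A_65_P06014 read 0.50, 0.24 and 0.25 for the 3 EB5 arrays, 0.04, -0.09 and -0.04 for those of RKPG9, 0.21, 0.17 and 0.28 for those of HP3 and -0.05, 0.34 and 0.18 for those of HP4, where 1 array lay within the range of RKPG9.

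All 4 Dnmt3a probes fell in RKPG9 against EB5, by 0.31 ± 0.04 (adjusted p = 6.66e-05), 0.36 ± 0.09 (adjusted p = 0.01), 0.41 ± 0.09 (adjusted p = 0.00328) and 0.32 ± 0.06 (adjusted p = 0.00164) for A_65_P10846, A_65_P06014, A_65_P18512 and A_65_P01146. Against RKPG9, 3 of the 4 rose in HP3, by 0.36, 0.46 and 0.36 for A_65_P10846, A_65_P18512 and A_65_P01146 (adjusted p = 2.87e-05, 0.00228 and 0.000969). The same 3 rose in HP4, by 0.33, 0.39 and 0.33 (adjusted p = 4.33e-05, 0.00388 and 0.00113), except that A_65_P10846 turned to -0.10 (adjusted p = 0.163) with median centring. A_65_P06014 differed by 0.24 in HP3 (adjusted p = 0.0838) and 0.19 in HP4 (adjusted p = 0.13). None of the 4 passed the test in HP3 or HP4 against EB5, with changes between -0.17 and 0.05. The offset added to every signal shrinks the ratios of the dim probes: with an offset of 0, A_65_P18512 and A_65_P01146 fell by 0.71 and 0.96 in RKPG9 against EB5 and without background subtraction by 0.08 and 0.05, each past the test, while A_65_P06014 lost its call with an offset of 0 (-0.48, adjusted p = 0.0524). In Cy3 alone the fall of A_65_P06014, A_65_P18512 and A_65_P01146 against EB5 did not pass it (-0.22, -0.09 and -0.18).

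Dnmt3l, the cofactor of both enzymes, did not share the low level of RKPG9. Its probe A_65_P12474 read 3.18, 3.10 and 3.26 for the 3 EB5 arrays, 3.30, 3.29 and 3.27 for those of RKPG9, 3.38, 3.30 and 3.25 for those of HP3 and 3.26, 3.00 and 2.87 for those of HP4, so that the lines lay close together and the HP4 arrays spread widest. The mean of RKPG9 was 9.75 times the reference, of HP3 9.93, of EB5 9.06 and of HP4 8.23. Against EB5 the changes were 0.11 in RKPG9 (adjusted p = 0.354), 0.13 in HP3 (adjusted p = 0.243) and -0.14 in HP4 (adjusted p = 0.186). HP4 was lower than RKPG9 by 0.24 ± 0.08 (change -0.24, adjusted p = 0.0317), with no overlap, and lower than HP3 by 0.27 ± 0.08 (change -0.27, adjusted p = 0.0274), with overlap. Of 19 alternatives, 8 and 9 kept these calls. The call against HP3 was lost without HP3 replicate 1 or 2, and both calls without HP4 replicate 2. Without HP4 replicate 3 they went to -0.16 (adjusted p = 0.119) and -0.18 (adjusted p = 0.0905), and without any 1 of the RKPG9 arrays the first was lost as well (adjusted p between 0.061 and 0.08).

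Dnmt1, the maintenance enzyme, moved little and not with the de novo enzymes. A_65_P04915 read 0.37, 0.38 and 0.38 for the 3 EB5 arrays, 0.58, 0.48 and 0.46 for those of RKPG9, 0.41, 0.38 and 0.41 for those of HP3 and 0.34, 0.25 and 0.20 for those of HP4. RKPG9 was thus highest and HP4 lowest, with no overlap of either with another line. HP4 was lower than RKPG9 by 0.24 ± 0.04 (change -0.24, adjusted p = 0.000697), which all 19 alternatives kept, with -0.55 in Cy3 alone and -0.86 with median centring. Smaller differences passed the test only in part of the alternatives: RKPG9 above EB5 by 0.13 (adjusted p = 0.0296, kept by 12 of 18), HP4 below EB5 (-0.11, adjusted p = 0.0467, kept by 8 of 18) and HP4 below HP3 (-0.14, adjusted p = 0.0284, kept by 9 of 19). The rise in RKPG9 was lost without any 1 of the EB5 arrays or RKPG9 replicate 1 (0.09, adjusted p = 0.114). HP4 against EB5 was lost without any 1 of the EB5 arrays and without HP4 replicate 2 or 3, and HP4 against HP3 without any 1 of the HP3 arrays and without HP4 replicate 2 or 3 (-0.11, adjusted p = 0.0958). The other Dnmt1 probe, A_65_P20509, ranged from -0.07 to 0.11 over the 12 arrays and passed the test in no comparison, with changes between -0.05 and 0.03. The disagreement of the probes leaves the Dnmt1 differences uncertain.

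Dnmt2, the transfer RNA methyltransferase, ranged from -0.42 to -0.09 over the 12 arrays on its probe A_65_P07147. The mean was -0.19 for EB5, -0.33 for RKPG9, -0.21 for HP3 and -0.28 for HP4, and it passed the test in none of the 6 comparisons, with changes between -0.13 and 0.12. Under the alternatives it passed in 4 of 18 for HP4 against EB5 (-0.36 from processed signals). It also passed in 3 of 18 for RKPG9 (-0.22 with median centring) and 1 of 18 for HP3 against EB5.

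Counted over the 10 probes, the methyltransferases were called more often than all probes in one direction in each comparison with RKPG9. In RKPG9 against EB5, 6 of 10 fell and 1 rose, while 21.9% of all probes fell and 12.5% rose. In HP3 against RKPG9, 5 rose and none fell (1 fell at an unadjusted limma p under 0.05), beside 12.7% and 10.1% of all. In HP4 against RKPG9, 5 rose and 2 fell, beside 21% and 19.1% of all. The median change of the 10 probes was -0.31, 0.30 and 0.26 in these comparisons, and that of all probes -0.02, 0.00 and 0.01. In HP3 against EB5, 2 rose and none fell (none also at an unadjusted limma p under 0.05), beside 11.3% and 19.4% of all, and in HP4 against EB5, 2 rose and 1 fell, beside 18.4% and 26.6%. In HP4 against HP3, none rose (none also at an unadjusted limma p under 0.05) and 2 fell, beside 13.9% and 14.7%. The arrays of the lines compared did not overlap for 3 probes in HP3 against EB5 (46.3% of all probes), 3 in HP4 against EB5 (53.7%), 8 in RKPG9 against EB5 (49.5%), 8 in HP3 against RKPG9 (39.7%), 7 in HP4 against RKPG9 (51.2%) and 2 in HP4 against HP3 (42.8%). Probes of 1 gene are not independent. The falls in RKPG9 against EB5 and the rises against RKPG9 were all of Dnmt3b and Dnmt3a probes. The rises in HP3 and HP4 against EB5 were of Dnmt3b. All other calls, those in HP4 against HP3 included, were of Dnmt3l or of Dnmt1.

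**Figure D2:**
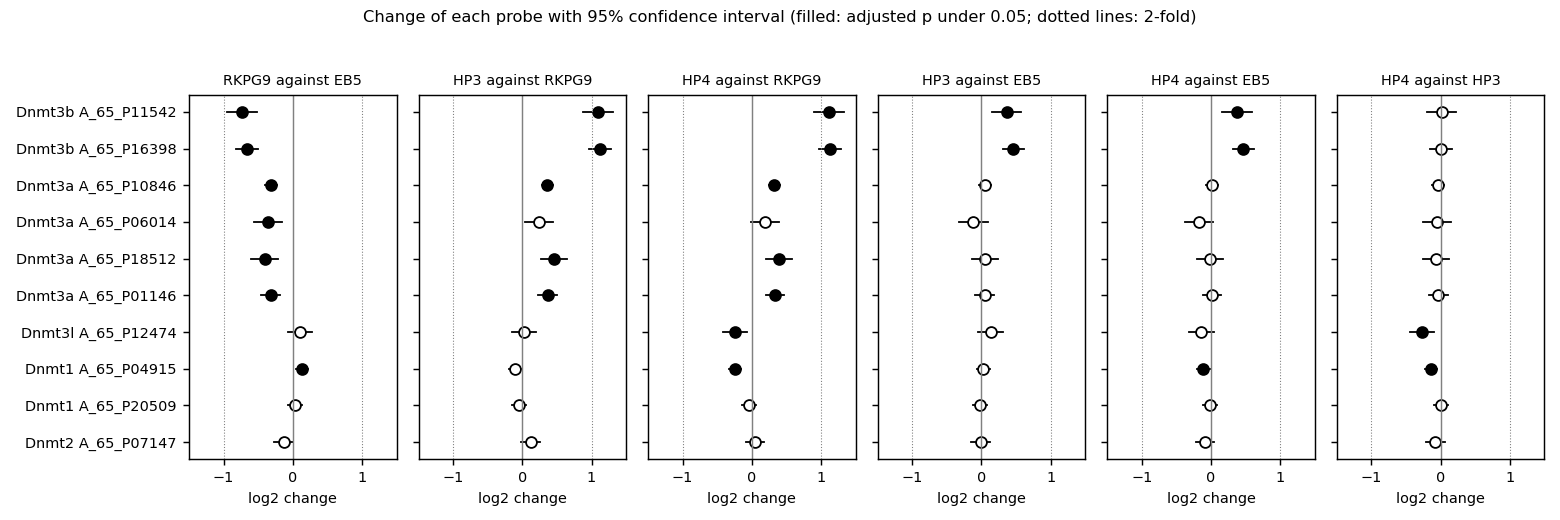
Log2 change of each Dnmt probe (x axis) in the 6 comparisons, with its 95% confidence interval; filled points passed the test and dotted lines mark 2-fold. Both Dnmt3b probes lie past 2-fold in HP3 and HP4 against RKPG9, and all 6 probes of Dnmt3b and Dnmt3a lie below 0 in RKPG9 against EB5.

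**Figure D3:**
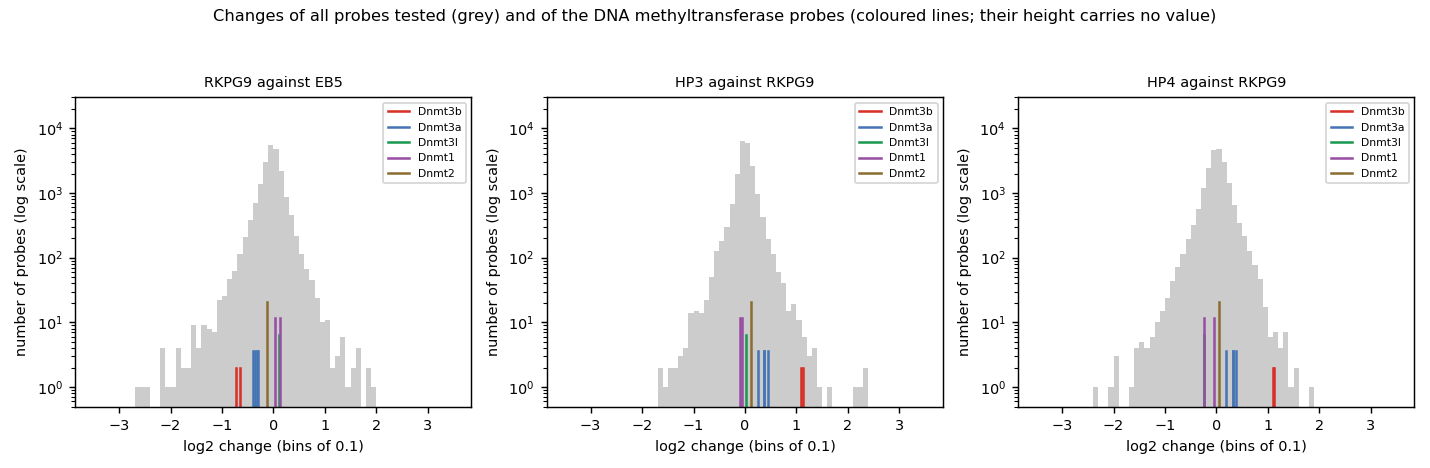
Number of probes (y axis, log scale) by log2 change (x axis, bins of 0.1) in the 3 comparisons with RKPG9, with the Dnmt probes as coloured lines whose height carries no value. The Dnmt3b probes lie in the upper tail in HP3 and HP4 against RKPG9, and the Dnmt3a probes on the same side nearer the middle. The Dnmt1, Dnmt2 and Dnmt3l probes lie between -0.24 and 0.12 there, with Dnmt3l and Dnmt1 A_65_P04915 lowest in HP4.

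**Figure D4:**
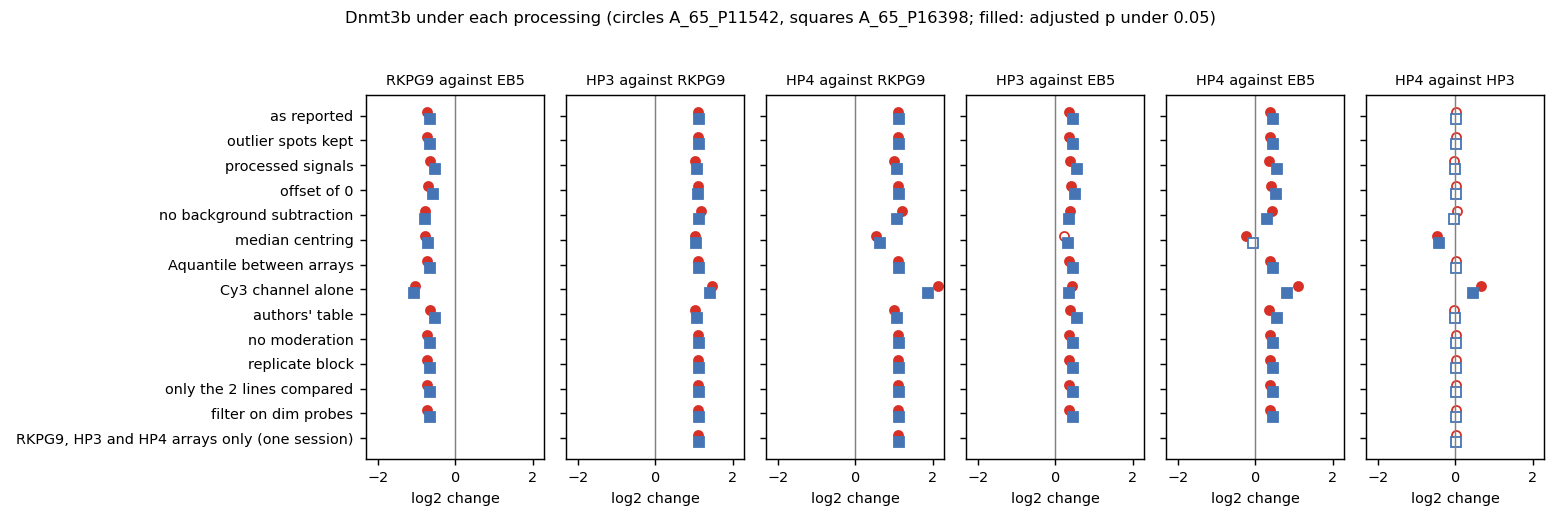
Log2 change (x axis) of the Dnmt3b probes under each processing (y axis), with circles for A_65_P11542, squares for A_65_P16398 and filled symbols past the test. The changes in RKPG9 against EB5 and in HP3 against RKPG9 hold their side under every setting shown, while those of HP4 against EB5 turn below 0 with median centring. Several of the settings cannot move a log2 change and alter at most the call.

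Over the 12 arrays, which fall into 4 lines and share the reference, the correlation with A_65_P11542 was 0.97 for the other Dnmt3b probe, 0.94, 0.83, 0.82 and 0.44 for the Dnmt3a probes A_65_P10846, A_65_P18512, A_65_P01146 and A_65_P06014, -0.18 for Dnmt3l, -0.71 and -0.51 for the Dnmt1 probes and 0.45 for Dnmt2. Among 1048 named probes that were bright on all arrays and varied, those most like it over 12 arrays were of Mcl1, a survival protein of the Bcl2 family (r = 0.974), Pim2, a serine/threonine kinase (r = 0.971), Trappc6a, of a vesicle tethering complex (r = 0.970), Magohb, of the exon junction complex (r = 0.970), and Myo10, an unconventional myosin (r = 0.968). The other Dnmt3b probe came sixth. Over the 9 arrays of 1 session they were of Tmem123 (0.988), Gde1, a phosphodiesterase (0.985), Trappc6a (0.983), Gldc, of the glycine cleavage system (0.982), and Ddit4, a stress-induced inhibitor of mTOR signalling (0.982). Against RKPG9 the log2 change of Pim2 was 1.03 for HP3 and 1.09 for HP4, and that of Mcl1 0.63 and 0.74. These are descriptions over few lines, and any gene that sets RKPG9 apart scores high.

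The genes around the enzymes were described as 8 lists, each gene at its brightest probe, to be read beside the shares and medians of all probes above. Where a list below had no gene past the test in a direction in one of the 3 comparisons with RKPG9, limma gave none at an unadjusted p under 0.05 in it either. Of the proteins that work with Dnmt1 at replicated DNA, 9 of 11 were measured. Against RKPG9, 3 rose and 4 fell in HP3 (median -0.11) and 2 rose and 5 fell in HP4 (median -0.17), and 2 rose and 4 fell in RKPG9 against EB5 (median -0.08). Uhrf1, which brings Dnmt1 to hemimethylated DNA, read 1.22, 1.22 and 1.24 for the RKPG9 arrays, 1.08, 1.08 and 1.07 for those of HP3 and 1.02, 0.99 and 0.95 for those of HP4. Against RKPG9 Uhrf1 fell by 0.15 in HP3 (change -0.15, adjusted p = 0.00393) and by 0.25 in HP4 (change -0.25, adjusted p = 8.29e-05). Lig1, the replicative DNA ligase, fell by 0.38 and 0.51 (changes -0.38 and -0.51), and Pcna, the replication clamp, by 0.22 and 0.41 (changes -0.22 and -0.41), whereas Hells, a remodeller needed for methylation, rose by 0.21 and 0.18, the latter turning to -0.36 with median centring. The other Hells probe did not pass the test in HP3 (0.14, adjusted p = 0.0908) and rose by 0.27 in HP4 (adjusted p = 0.00207).

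Regulators and binding partners of the Dnmt3 enzymes (7 of 10 measured) fell in 5 cases and rose in none in RKPG9 against EB5 (median -0.15). Against RKPG9, 3 rose and none fell in HP3 (median 0.00), and 3 rose and 1 fell in HP4 (median 0.13). The fall was that of Dppa3, which shields DNA from demethylation in the zygote (change -0.85, adjusted p = 0.000567), and Dppa3 also fell against EB5 in HP4 (-1.11, adjusted p = 9.69e-05). Of the H3K9 methylation and silencing genes (10 of 12 measured), 3 rose and 3 fell in RKPG9 against EB5 (median -0.01), 3 rose and 1 fell in HP3 against RKPG9 (median 0.04), and 3 rose and 3 fell in HP4 (median -0.04). Suv39h1, an H3K9 methyltransferase, rose by 1.03 in RKPG9 against EB5 (adjusted p = 8.46e-06) and fell by 1.37 in HP4 against RKPG9 (change -1.37, adjusted p = 8.27e-07) on its brightest probe. Its other probe changed by -0.27 and 0.20 in these comparisons, so the probes disagree in direction. Of the methyl-CpG readers (7 of 10 measured), none rose and 4 fell in RKPG9 against EB5 (median -0.26), while 1 rose in HP3 and 3 rose in HP4 against RKPG9 (medians 0.06 and 0.10) and none fell. Mbd6 was the reader with the largest change, at -0.41 in RKPG9 against EB5 and 0.37 and 0.28 in HP3 and HP4 against RKPG9, the last turning to -0.18 with median centring.

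Of the demethylation genes, 5 of 12 were measured; 2 rose and 1 fell in RKPG9 against EB5 (median 0.13), 1 fell in HP3 against RKPG9 (median -0.08) and 2 fell in HP4 (median -0.16). Tet1, which oxidizes methylcytosine, did not pass the test in these comparisons (0.20, 0.09 and -0.23). Of the genes that supply S-adenosylmethionine, the methyl donor (9 of 14 measured), 2 rose and 3 fell in RKPG9 against EB5 (median 0.02), 2 rose and 1 fell in HP3 against RKPG9 (median 0.04), and 2 rose and 4 fell in HP4 (median -0.07). Ahcy, which clears the inhibitory product of methyl transfer, fell by 0.55 in HP3 (change -0.55, adjusted p = 2.89e-07) and by 0.37 in HP4 (change -0.37, adjusted p = 3.84e-06).

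Genes known to be silenced by DNA methylation (9 of 13 measured) fell in 7 cases and rose in none in RKPG9 against EB5 (median -0.28). Against RKPG9, 5 rose and none fell in HP3 (median 0.37), and 2 rose and 3 fell in HP4 (median -0.04). Rhox5, an X-linked homeobox gene, read 2.96 and 2.91 for EB5, where the spot of replicate 2 was an outlier and left out, 0.51, 0.51 and 0.56 for the RKPG9 arrays, 1.27, 1.27 and 1.34 for those of HP3 and 0.42, 0.38 and 0.41 for those of HP4. Rhox5 was lower than in EB5 in all 3 lines, with changes of -2.41 in RKPG9, -1.65 in HP3 and -2.53 in HP4 (adjusted p = 8.59e-11, 1.29e-09 and 5.22e-11). The germ cell gene Dazl rose by 0.65 in HP3 and 0.33 in HP4 against RKPG9, and Tdrkh, of the piRNA pathway, by 0.41 and 0.45. Sycp3, of the synaptonemal complex, had the largest value in HP3 (1.15, adjusted p = 0.000117), but it ran from -1.70 to 3.37 over 10 alternatives. Of the epiblast genes (6 of 12 measured), 1 rose and 1 fell in RKPG9 against EB5 (median 0.00), 2 rose in HP3 and 4 in HP4 against RKPG9 (medians 0.21 and 0.17), and none fell. Otx2, an epiblast transcription factor, read 3.46, 3.40 and 3.51 for the RKPG9 arrays, 4.14, 4.20 and 4.14 for those of HP3 and 3.91, 3.80 and 3.76 for those of HP4, with changes of 0.70 (adjusted p = 7.06e-05) and 0.37 (adjusted p = 0.00439). Over 10 alternatives the first ran from 0.30 to 1.08 and passed the test in 7, and the second ran from -0.10 to 1.18 and passed it in 6. Pou3f1 rose by 0.52 in HP3 and 0.61 in HP4 against RKPG9 and kept its call under all 10 alternatives.

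**Figure D5:**
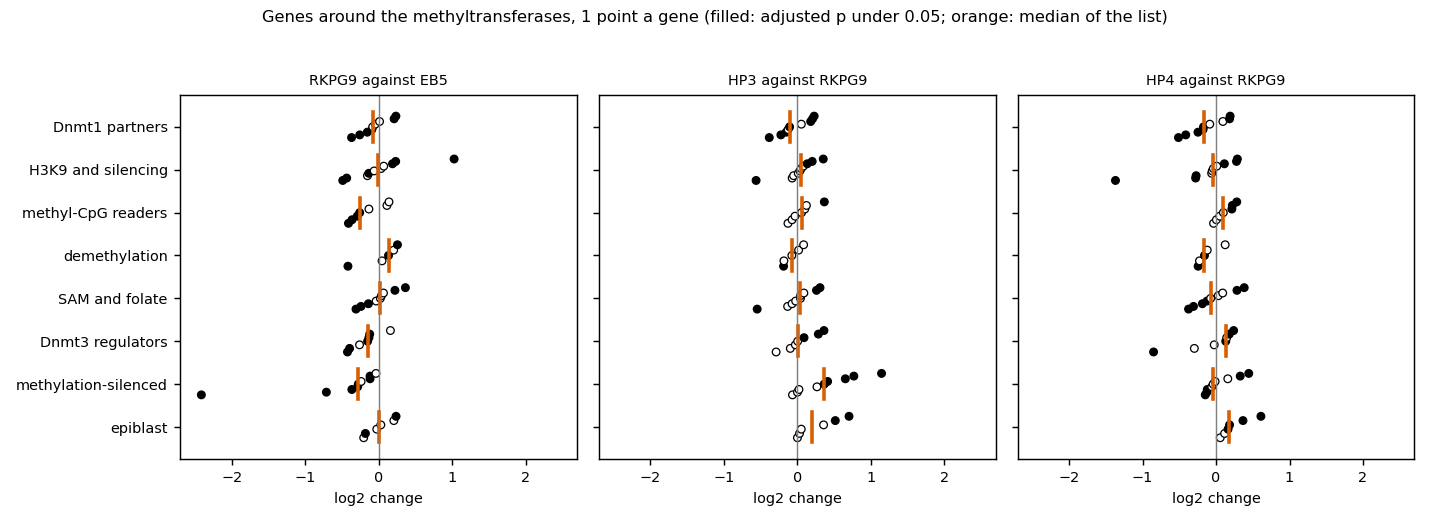
Log2 change (x axis) of each measured gene of the 8 lists (rows) in the 3 comparisons with RKPG9; filled points passed the test and orange bars are list medians. The medians lie between -0.28 and 0.37, and single genes such as Rhox5 (-2.41) and Suv39h1 (1.03 and -1.37) lie far from them.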

How the data were processed

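The deposited intensities give, for every spot, its mean signal and its median local background, which the authors read with Agilent Feature Extraction 7.5.1; the files also hold processed intensities that this software had corrected and dye-normalized. The deposited log10 table of the authors equals minus the log10 ratio of Cy5 over Cy3 plus a constant for each probe in 93.8% to 95.9% of its values (within 0.01), with column medians of 2.87 to 2.88; how the constant was set is not given in the sources used here. No dye swap was made.

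From the deposited intensities, background was removed by normexp (offset 50), followed by normalization by loess within arrays; log2 ratios (Cy3 over Cy5) were averaged per probe, without control and outlier spots. One model over the 12 arrays was fitted with limma 3.58.1 under R 4.3.3 (8 residual and 3.33 prior degrees of freedom), without a block. A probe was called at a Benjamini-Hochberg adjusted p under 0.05 over all probes tested. Every adjusted p is from this fit, except that one given for a named alternative is from the refit under that alternative. The 2-fold threshold is that of the study. The model was also run on simulated ratios with independent noise on each array, which do not bear on session, clone or scaling. The number of arrays limits the precision. A current symbol was found for 8452 of 20280 probes through the GRCm38.p6 gene table. Python 3.11.15 with pandas 2.3.3 read the promoters, and matplotlib 3.10.9 drew the plots.

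Named are all Dnmt probes, the 5 probes most correlated with the brightest Dnmt3b probe among those well above background on all arrays with an SD of at least 0.2, over 12 and over 9 arrays, and some of the up to 3 members of each list with the largest called change. Members and lists were chosen with earlier results of these data known. The labels do not say whether replicate numbers pair the arrays. Correlations of same-numbered arrays ran from -0.18 to 0.19, with 4 of 18 above 0.1. Between HP3 and HP4 they were 0.19, 0.115 and 0.08, and those of differently numbered arrays ran from -0.20 to 0.12. A weak pairing within that session is therefore not excluded. Other signals, offsets, normalizations, filters, sample sets and left-out arrays were tried as alternatives.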

Additional observations from a re-analysis of the deposited data

Results flagged for a closer look

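The effect of HP4 against EB5 differed from that of HP3 against EB5 for 2 Dnmt probes, by the test of the difference between both lines. EB5 cancels in it, so these are the HP4 against HP3 changes given above, and each call was kept by 9 of 19 alternatives. For Dnmt3l A_65_P12474 the effect in HP4 was lower by 0.27 (difference -0.27, limma adjusted p = 0.0274), with changes of -0.14 in HP4 and 0.13 in HP3, and for Dnmt1 A_65_P04915 it was lower by 0.14 (difference -0.14, limma adjusted p = 0.0284), with changes of -0.11 and 0.03. HP4 arrays also had the smallest shares of probes well above background in Cy3 (85.3% to 86.1%) and the lowest Zfp42 levels; the part of either in these differences was not tested.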

How the results depend on the processing

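The counts of called Dnmt probes stayed within 1.5 times of the value reported under every alternative that kept all 3 arrays of the lines compared for HP3 against EB5 (2, range 2 to 3), RKPG9 against EB5 (7, range 5 to 9), HP3 against RKPG9 (5, range 5 to 6) and HP4 against RKPG9 (7, range 6 to 7). A kept count can hide other calls: with median centring, HP3 against EB5 had 1 higher and 1 lower in place of 2 higher. Over all alternatives, left-out arrays included, 1019 changes of single probes kept their call or stayed without one. A further 54 lost the call, 27 gained it, and 10 turned in direction with a call before or after. A change without a call on either side was counted as kept even where its sign turned. Leaving out 1 array at a time gave 1 to 2 called probes for HP3 against EB5, 2 to 4 for HP4 against EB5, 6 to 7 for RKPG9 against EB5, 5 to 5 for HP3 against RKPG9, 6 to 8 for HP4 against RKPG9 and 0 to 2 for HP4 against HP3. For HP4 against EB5 the count of 3 (2 higher, 1 lower) became 6 without background subtraction (3 and 3), 6 with median centring (1 and 5) and 5 in Cy3 alone (3 and 2). For HP4 against HP3 the count of 2 became 0 with an offset of 0, from the authors' table, from processed signals and with only the 2 lines compared, 1 without moderation and with the arrays of 1 session only, 7 with median centring (2 and 5) and 4 in Cy3 alone (2 and 2). With median centring the changes that turned with a call before or after were, for HP4 against EB5, Dnmt3b A_65_P11542 (-0.25) and A_65_P16398 (-0.0716) and Dnmt3a A_65_P10846 (-0.46). For HP4 against RKPG9 it was Dnmt3a A_65_P10846 (-0.10), and for HP4 against HP3 Dnmt3b A_65_P11542 (-0.48) and A_65_P16398 (-0.41) and Dnmt3a A_65_P06014 (0.25) and A_65_P01146 (0.35). In Cy3 alone, Dnmt3a A_65_P10846 (-0.20) and A_65_P18512 (0.23) turned in HP4 against EB5. The cause was not tested. The replicate block changed no count (2, 3, 7, 5, 7 and 2 called probes, in the order HP3, HP4 and RKPG9 against EB5, HP3 and HP4 against RKPG9, and HP4 against HP3). Whether the numbers pair the arrays is not known. Aquantile scaling leaves the ratios as they are by construction. Keeping outlier spots does the same here, since no Dnmt probe had one. The log2 changes also stay as they are without moderation, with the replicate block, with the filter on dim probes, with only the 2 lines compared and with 1 session only. These settings can alter a call but not a direction, and they are included in the numbers of alternatives that kept a call. Dim probes such as Dnmt3a A_65_P01146 are limited by their signal over background.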
